A study of Mus musculus with 18 samples.

Results

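Genes for the uptake, binding, storage and export of lipid were followed in the mouse carotid artery after wire injury. They were the 10 rows of the raw count table with the symbols Trem2, Apoe, Lpl, Fabp4, Fabp5, Gpnmb, Cd36, Abca1, Abcg1 and Plin2, out of 35655 rows in all. All 10 passed the filter on low counts, which left 10312 genes to be tested. The rule takes them by name as lipid-handling and foam cell genes and uses no measured value.

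Laser-dissected carotid sections were sequenced by MACE, which counts the 3′ ends of polyadenylated transcripts. The groups were 4 libraries taken before injury (day 0) and 4, 3, 4 and 3 libraries taken 7, 14, 21 and 28 days after it, and the comparisons ask how each stage of healing differs from the artery before injury and from the day 7 stage. All animals were wild-type male C57/BL6 mice operated on at 11 weeks of age and kept on chow, without a high-fat diet. The wire was passed through the left carotid, the right served as control in the study, and vessels with thrombosis were left out. Each library came from up to 70 sections that held the outer elastic lamina and what lies inside it, and the study calls its neointima samples pooled. The library labels end in a number, read here as a mouse number. In the labels, 3 such numbers stand both on a day 0 and on a day 21 library, so those day 0 vessels may be the other side of an injured animal. Library totals were 440675 to 878310 counts, and 1 count in a library equalled 1.18 to 2.33 CPM, the scaled count per 1000000 that is the unit of every level below.

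Macrophages take up lipoproteins through scavenger receptors, break them down in lysosomes and store the cholesterol as esters in droplets, which gives the cells their foamy look. TREM2 is a lipid-sensing receptor of such cells, apolipoprotein E and the transporters ABCA1 and ABCG1 carry cholesterol out, and lipoprotein lipase and the fatty acid-binding proteins handle fatty acids. Several of these genes are not specific to macrophages, since Fabp4 and Lpl are also known from adipocytes and Fabp4 and Cd36 from capillary endothelium.

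The tissue changed its cell type markers along with these genes. The summed level of 16 macrophage markers was 158 to 587 CPM on day 0, 6003 to 8543 on day 7, 1604 to 3782 on day 14, 2334 to 3979.8 on day 21 and 1025 to 1395 on day 28. Mpeg1 was at 0 in every day 0 library, and every other marker of that list had counts on every day. Smooth muscle markers, 8 genes, summed to 31861 to 37222 CPM on day 0, 1518 to 7016 on day 7 and 20068 to 28249 on day 28, so the labelled artery was borne out by its muscle genes. In such bulk tissue, more cells of a type and more RNA per cell cannot be told apart, and the part of the macrophage content in the results below was not tested.

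As examples that need not stand for the group, 2 windows of 250 bases before the start of the RefSeq transcript are given. They belong to Trem2 and Abca1 and run 5′ to 3′ on the strand of the gene. They were read from the RefSeq promoter table of GRCm38.p6 and placed in GRCm39 by an exact match that occurred once. Capitals mark CACGTG, the E-box read by the lysosomal and lipid regulators of the MiT family.
Trem2, chr17:48653179-48653428, plus strand: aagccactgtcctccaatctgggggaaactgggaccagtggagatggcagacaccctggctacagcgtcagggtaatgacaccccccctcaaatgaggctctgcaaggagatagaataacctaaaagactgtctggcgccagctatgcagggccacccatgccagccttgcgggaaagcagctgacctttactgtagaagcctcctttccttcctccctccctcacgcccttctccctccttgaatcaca
Abca1, chr4:53159896-53160145, minus strand: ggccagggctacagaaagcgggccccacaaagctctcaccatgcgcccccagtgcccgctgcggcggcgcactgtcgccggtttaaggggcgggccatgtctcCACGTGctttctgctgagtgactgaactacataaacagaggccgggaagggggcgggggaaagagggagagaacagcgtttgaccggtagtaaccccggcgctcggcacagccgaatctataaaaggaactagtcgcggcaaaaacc
Promoters were found in that table for 6 of the 10 genes, namely Trem2, Apoe, Gpnmb, Cd36, Abca1 and Plin2. The E-box lay in the window of Abca1 alone, 147 bases before the start, and 6.02% of all 32851 promoter windows held it. Both strands were also searched for GAGGAAGT, a site of the myeloid factor PU.1, and for the nuclear receptor direct repeats DR1 and DR4, and none of the 6 genes had a match. These 3 motifs were found in 2.44%, 0.0335% and 0.0152% of all windows. A match describes the letters only.

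Trem2 encodes the lipid-sensing receptor of macrophages, on chromosome 17 (GRCm39, 48653429 to 48661175, plus strand, 5 exons). Before injury its levels were 2.98, 0, 0 and 2.62 CPM, which were 4 counts in all. On day 7 they were 80.1, 135, 102 and 134 CPM. Every day 7 library was far above every day 0 library. The levels were 41.6, 35.3 and 96.6 CPM on day 14, and 48.5, 145, 54.3 and 32.6 on day 21. On day 28 the 3 libraries held 10.1, 0 and 46.3 CPM. Both middle days stayed clear of day 0, whereas day 28 overlapped with it, since 1 of its libraries had no count. The means were 1.40 ± 1.62 CPM (SD, n = 4) on day 0, 113 ± 26.6 (n = 4) on day 7 and 18.8 ± 24.4 (n = 3) on day 28.

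The fitted log2 fold changes of Trem2 against day 0 rest on those 4 counts and depend on how low counts are handled. The ratio of summed counts, scaled for library totals, is therefore given with its 95% counting interval, which covers counting error only. Trem2 was 83.4-fold higher on day 7 (32.2 to 308, edgeR adjusted p = 1.3e-05). The ratio was 45.1 on day 14 (17.1 to 168, adjusted p = 0.000635) and 49.5 on day 21 (18.9 to 184, adjusted p = 0.000245). With the shared mouse numbers as a block in the fit, the log2 difference of Trem2 on day 14 was 4.14 (adjusted p = 0.0542). On day 28 the ratio of counts was 13.7 (4.92 to 53.1), and the test without the block did not pass (adjusted p = 0.0708). Leaving out day 28 replicate 1 or replicate 2 brought that adjusted p to 0.0308 or 0.0186. From day 7 to day 28 Trem2 fell by 2.57 on the log2 scale (SE 0.71, adjusted p = 0.0158), a call that was lost without day 28 replicate 1 (adjusted p = 0.0592) or replicate 2 (0.0532). Without day 28 replicate 3 the value was -4.36. Its days ranked 7, 21, 14, 28 and 0, and no neighbours in that order differed beyond their spread (adjusted p from 0.0708 to 0.999).

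**Figure D1:**
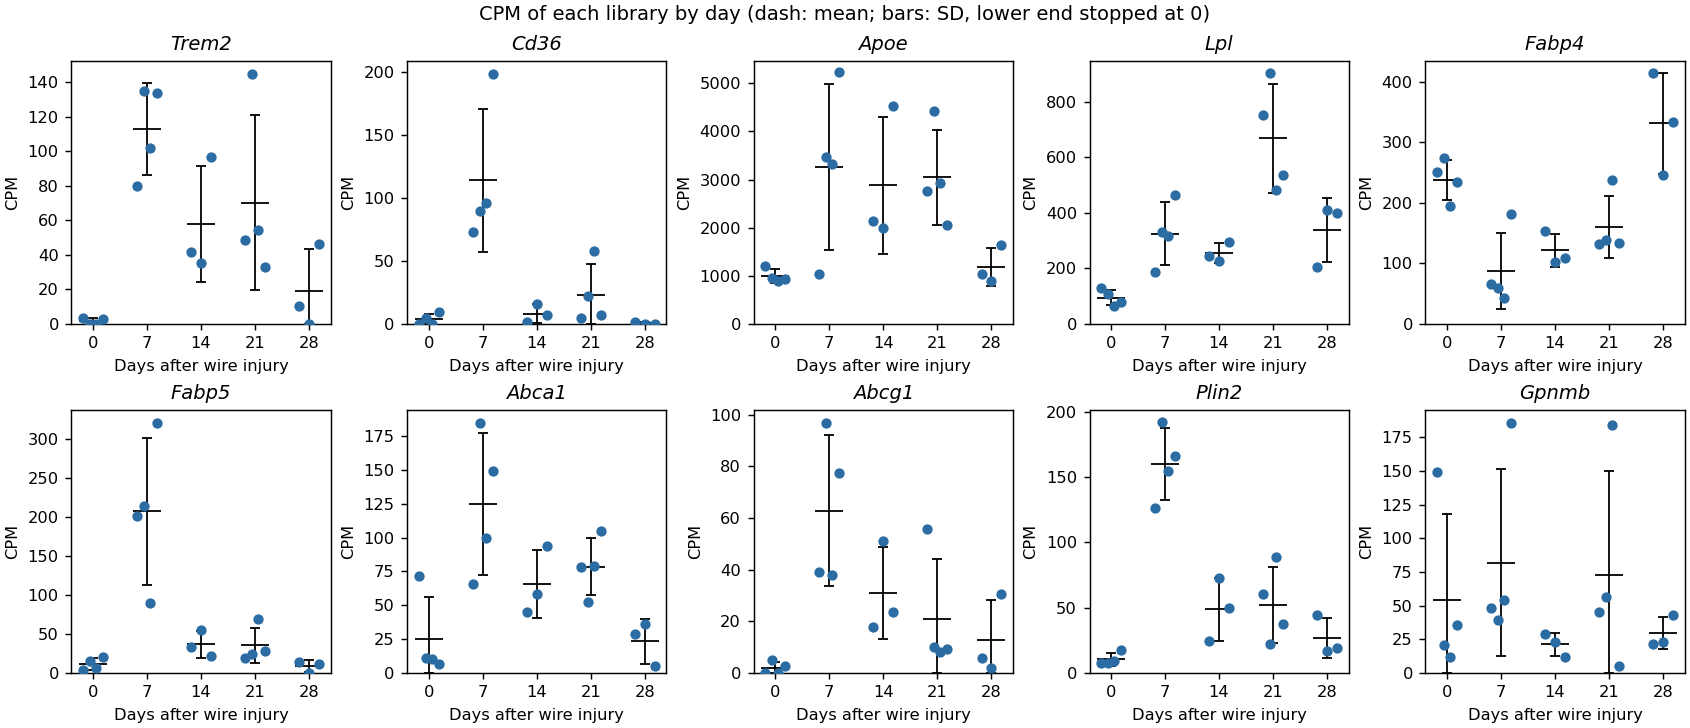
Level of each of the 10 genes in every library, in CPM on a linear axis that differs between panels, against days after wire injury. Points are libraries, the dash is the mean and the bars are the SD, stopped at 0. Cd36, Fabp5, Abcg1 and Plin2 stand highest on day 7, Lpl is highest on day 21, and Fabp4 is lowest on day 7 and highest on day 28.

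Cd36 encodes a scavenger receptor that takes up oxidised lipoprotein and long-chain fatty acids (chromosome 5, 17986432 to 18094067, minus strand, 15 exons). The day 0 libraries held 0, 4.78, 0 and 9.19 CPM. A week after injury the levels were 73.0, 89.8, 95.7 and 199 CPM. No day 7 library came near the range of day 0. Levels of 1.60, 15.9 and 6.52 CPM followed on day 14, and 4.73, 22.2, 57.6 and 6.98 on day 21. On day 28 a single count was left in the 3 libraries, with 1.44, 0 and 0 CPM. Cd36 was therefore present above a few counts in all libraries of day 7 only, and days 14 and 21 overlapped with day 0.

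Cd36 rose by 4.90 on the log2 scale from day 0 to day 7 (SE 0.83, adjusted p = 0.000131), from a mean of 3.49 ± 4.41 CPM (SD, n = 4) to 114 ± 57.0 (n = 4). It then fell by 3.84 from day 7 to day 14 (SE 0.87, adjusted p = 0.0215), which was lost without day 7 replicate 2 or 4 or day 14 replicate 1 or 3 (adjusted p from 0.0515 to 0.178). The day 7 level was 225 times that of day 28 by summed counts scaled for library totals (counting interval 40.1 to 8938, edgeR adjusted p = 0.000247). Against day 0, Cd36 differed by 1.06 on day 14 (adjusted p = 0.694), and the day 21 difference was 2.59 (adjusted p = 0.0543). The latter passed in 5 of the fits that left out a library, with adjusted p of 0.0326 without day 0 replicate 4. From day 7 to day 21 Cd36 fell by 2.31 (SE 0.70, adjusted p = 0.0436), and that call was lost in 8 of the 18 fits that left out a library, with an adjusted p as high as 0.176 without day 7 replicate 4.

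Apoe encodes the apolipoprotein that macrophages secrete and that carries cholesterol away (chromosome 7, 19430034 to 19434947, minus strand, 4 exons). It was abundant before injury, at 1194, 941, 893 and 932 CPM. On day 7 the libraries held 1031, 3477, 3315 and 5242 CPM. Day 7 replicate 1 thus lay inside the day 0 range, and the other 3 lay well above it. Day 14 gave 2132, 1987 and 4519.7 CPM, and day 21 gave 2759.5, 4428, 2922 and 2062. Day 28 gave 1023, 889.8 and 1628 CPM. All libraries of days 14 and 21 exceeded all of day 0, and day 28 overlapped with day 0.

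Apoe rose by 1.72 on the log2 scale on day 7 (SE 0.35, adjusted p = 0.000856), by 1.54 on day 14 (SE 0.37, adjusted p = 0.0103) and by 1.62 on day 21 (SE 0.35, adjusted p = 0.00409). With the shared mouse numbers as a block, the day 7 value was 1.29 (adjusted p = 0.107) and the day 14 value 1.10 (adjusted p = 0.309). The day 14 call was also lost without day 14 replicate 3 (1.04, adjusted p = 0.151). The means of the 3 days were 3266 ± 1727 CPM (SD, n = 4), 2879.7 ± 1422 (n = 3) and 3043 ± 996 (n = 4), and neighbouring days among them did not differ beyond their spread (adjusted p = 0.918 and 0.999). Day 28, with 1180.2 ± 394 CPM (n = 3), differed from day 0 by 0.25 (adjusted p = 0.797). It was lower than day 7 by the test, where Apoe fell by 1.47 (SE 0.38, adjusted p = 0.0112), though the libraries of these days overlapped and the call was lost without day 28 replicate 2 (adjusted p = 0.0648).

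Lpl encodes lipoprotein lipase, which frees fatty acids from triglyceride-rich particles and is made by macrophages, adipocytes and muscle (chromosome 8, 69284603 to 69360100, plus strand, 10 exons). Levels before injury were 127, 108, 64.1 and 77.4 CPM. They were 185, 329, 317 and 463 CPM on day 7, and 242, 224 and 294 on day 14. The groups did not overlap with day 0 on either day. On day 21 Lpl reached 752, 904, 482 and 535 CPM. Day 28 levels were 204, 408 and 398 CPM. Day 21 lay wholly above every other day, and day 28 still lay wholly above day 0.

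Lpl was the 1 gene of the 10 that passed the test against day 0 on all 4 days. The log2 increases were 1.78 on day 7 (SE 0.30, adjusted p = 0.000132), 1.43 on day 14 (SE 0.32, adjusted p = 0.00609), 2.83 on day 21 (SE 0.31, adjusted p = 2.3e-06) and 1.84 on day 28 (SE 0.32, adjusted p = 0.00472). Under the mouse block, the day 14 increase was 1.00 (adjusted p = 0.197) and that of day 28 was 1.41 (adjusted p = 0.182). Mean levels were 93.9 ± 28.4 CPM (SD, n = 4) on day 0, 668 ± 196 (n = 4) on day 21 and 337 ± 115 (n = 3) on day 28. From day 7 to day 21 Lpl rose by 1.05 (SE 0.29, adjusted p = 0.026), a call lost without day 7 replicate 1, 2 or 3 or day 21 replicate 1 or 2 (adjusted p from 0.0582 to 0.104). In the order of days 21, 28, 7, 14 and 0, the neighbours day 14 and day 0 differed, and the other neighbours did not (adjusted p from 0.135 to 0.937).

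Genes that act on lipoprotein lipase were read beside it. Angptl4, its secreted inhibitor, rose by 3.94 on day 7 (SE 0.79, adjusted p = 0.000713) from 19.6 ± 26.0 to 297 ± 131 CPM (SD, n = 4 each) and was at 16.6 ± 5.74 CPM (n = 4) on day 21, when Lpl was highest. Gpihbp1, which anchors the enzyme to capillary endothelium, was at 0 in every library of days 0 and 7 and had at most 6 counts in any later library. Lmf1, a factor for the maturation of the enzyme, differed from day 0 by 0.47 on the log2 scale on day 7 (adjusted p = 0.627), and its later differences did not pass either (adjusted p from 0.409 to 0.788).

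Fabp4 and Fabp5 encode small cytosolic proteins that bind fatty acids, the former known from adipocytes, capillary endothelium and macrophages and the latter from epidermis and macrophages. Both genes lie on chromosome 3, Fabp4 at 10268785 to 10273737 on the minus strand and Fabp5 at 10077602 to 10081674 on the plus strand, with 4 exons each. Fabp4 was expressed before injury, at 250.1, 274, 195 and 234 CPM. Its levels on day 7 were 65.9, 59.3, 41.9 and 181 CPM. All 4 were under the lowest day 0 library. They were 154, 102 and 108 CPM on day 14 and 131, 139, 237 and 133 on day 21. At day 28 Fabp4 stood at 414, 246 and 334 CPM. Day 14 remained below every day 0 library, day 21 overlapped through 1 library, and day 28 lay above every library of days 7, 14 and 21.

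Fabp4 was the only one of the 10 genes that fell on day 7, by 1.44 on the log2 scale (SE 0.34, adjusted p = 0.00331), from 238 ± 33.0 to 87.0 ± 63.4 CPM (SD, n = 4 each). Under the mouse block the fall was 1.40 and missed the threshold (adjusted p = 0.0525). The differences from day 0 were -0.97 on day 14 (adjusted p = 0.132), -0.57 on day 21 (adjusted p = 0.335) and, at day 28, 0.48 (adjusted p = 0.556). The day 14 value passed without day 7 replicate 4, which stood apart from the other day 7 libraries (adjusted p = 0.0321). Fabp4 rose by 1.92 from day 7 to day 28 (SE 0.36, adjusted p = 0.00084), with a day 28 mean of 331 ± 83.6 CPM (n = 3). No neighbours in its order of days, 28, 0, 21, 14 and 7, differed beyond their spread (adjusted p from 0.335 to 0.999).

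Fabp5 ran the other way. It was low before injury, at 2.98, 15.5, 5.96 and 19.7 CPM. On day 7 it was at 201, 214, 89.7 and 321 CPM. The lowest day 7 library exceeded the highest day 0 library by a wide margin. Levels returned to 33.6, 54.7 and 20.9 CPM on day 14 and to 18.9, 24.2, 69.1 and 27.9 on day 21. By day 28 they were 14.4, 0 and 11.2 CPM. Day 14 was still just above day 0, and the later days overlapped with it.

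The increase of Fabp5 on day 7 was 4.17 on the log2 scale (SE 0.59, adjusted p = 1.4e-05), from 11.0 ± 7.87 to 207 ± 94.7 CPM (SD, n = 4 each). It fell by 2.52 from day 7 to day 14 (SE 0.59, adjusted p = 0.0256), fell by 2.56 to day 21 (SE 0.53, adjusted p = 0.00334) and fell by 4.54 to day 28 (SE 0.69, adjusted p = 0.000116). The first of these calls was lost without day 7 replicate 1, 2 or 4 or day 14 replicate 1 or 3 (adjusted p from 0.0556 to 0.175). Against day 0, the differences of 1.66 on day 14 and 1.62 on day 21 did not pass (adjusted p = 0.132 and 0.0922). As a share of counts, chosen after the values were seen and given with no test, there were 1.19 to 8.43 Fabp5 counts per 100 Fabp4 counts on day 0, 178 to 361 on day 7, 19.3 to 53.4 on day 14, 14.4 to 29.2 on day 21 and 0 to 3.47 on day 28. Fabp5 counts outnumbered those of Fabp4 in the 4 day 7 libraries and in no other.

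Abca1 and Abcg1 encode the transporters that pass cholesterol to lipid-poor apolipoprotein A-I and to high-density lipoprotein, and both are classical targets of the liver X receptors. They lie on chromosome 4 (53030787 to 53159900, minus strand, 50 exons) and chromosome 17 (31276649 to 31336969, plus strand, 15 exons). Abca1 before injury was at 71.5, 10.8, 10.4 and 6.56 CPM. It was at 65.9, 185, 99.7 and 149 CPM on day 7. Day 0 replicate 1 was several times the other day 0 libraries and lay above the lowest library of day 7. Later levels were 44.8, 58.2 and 93.9 CPM on day 14, 78.1, 52.5, 78.9 and 105 on day 21, and 28.7, 36.4 and 4.79 on day 28. The overlap with day 0 on days 7, 14 and 21 came from that library alone.

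Abca1 rose by 2.35 on day 7 (SE 0.57, adjusted p = 0.00409), from 24.8 ± 31.2 to 125 ± 52.6 CPM (SD, n = 4 each). With the mouse block the day 7 value was 1.69 (adjusted p = 0.136), and without day 0 replicate 1 it was 3.73. The log2 differences of days 14 and 21, 1.43 and 1.68, did not pass (adjusted p = 0.2 and 0.0672), but without day 0 replicate 1 they were 2.81 (adjusted p = 0.00315) and 3.06 (adjusted p = 0.000987), and the mouse block gave 2.20 on day 21 (adjusted p = 0.0341). The day 28 level differed from day 0 by -0.07 (adjusted p = 0.984), and by 1.32 without day 0 replicate 1 (adjusted p = 0.268), and the alternatives run gave -0.72 to 1.32. From day 7 to day 28 Abca1 fell by 2.41 (SE 0.64, adjusted p = 0.0126), which was lost without day 28 replicate 3 (-1.91, adjusted p = 0.066).

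Abcg1 was close to absent before injury, at 0, 4.78, 0 and 2.62 CPM. It was at 39.2, 97.0, 37.9 and 77.5 CPM on day 7 and at 17.6, 51.2 and 23.5 on day 14. Neither day overlapped with day 0. On day 21 its levels were 55.6, 10.1, 8.22 and 9.31 CPM, and on day 28 they were 5.74, 1.65 and 30.4. Day 21 replicate 1 was over 5 times each of the other day 21 libraries, which nonetheless all exceeded day 0. The log2 increases were 4.86 on day 7 (SE 0.91, adjusted p = 0.000362), 3.82 on day 14 (SE 0.94, adjusted p = 0.0132) and 3.33 on day 21 (SE 0.92, adjusted p = 0.0222). The day 21 call was lost without day 21 replicate 1 (2.11, adjusted p = 0.223) and without day 0 replicate 1 or 3 (adjusted p = 0.055 and 0.0651), and the day 14 call without day 14 replicate 2 (3.25, adjusted p = 0.11). On day 28 the difference of 2.55 did not pass (adjusted p = 0.217). The day 28 difference of Abcg1 from day 7, -2.31, had an adjusted p of 0.0644, though all day 28 libraries lay below all of day 7. It passed in 6 of 26 alternatives, among them the mouse block (adjusted p = 0.0439) and DESeq2 (0.0313), and missed in the other 20.

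Plin2 encodes perilipin 2, the coat protein of lipid droplets in most cells that are not adipocytes (chromosome 4, 86565912 to 86588459, minus strand, 8 exons). Day 0 levels were 7.44, 7.17, 8.94 and 17.1 CPM. Those of day 7 were 126, 192, 155 and 166 CPM. The day 7 libraries varied little and were all above every library of every other day. On day 14 they were 24.0, 72.4 and 49.6 CPM, on day 21 they were 60.3, 22.2, 88.8 and 37.2, and day 28 gave 44.5, 16.5 and 19.2. Days 14 and 21 stayed above day 0 in every library, and day 28 overlapped with it through replicate 2.

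Plin2 had the smallest p of the 10 genes on day 7, with an increase of 3.95 (SE 0.47, adjusted p = 1.7e-06) from 10.2 ± 4.67 to 160.1 ± 27.3 CPM (SD, n = 4 each). It remained higher by 2.23 on day 14 (SE 0.49, adjusted p = 0.00583) and by 2.35 on day 21 (SE 0.47, adjusted p = 0.00238), and by 1.39 on day 28 without passing (adjusted p = 0.186). The day 14 call was lost without day 14 replicate 2 (1.84, adjusted p = 0.075) and in limma on the deposited normalised values (1.84, adjusted p = 0.07). Against day 7, Plin2 fell by 1.60 on day 21 (SE 0.41, adjusted p = 0.0155) and by 2.56 on day 28 (SE 0.48, adjusted p = 0.00077), while the day 14 difference of -1.72 had an adjusted p of 0.0512. The day 21 call against day 7 was lost without day 7 replicate 2 or day 21 replicate 2 or 4 (adjusted p from 0.0566 to 0.0637), and in limma on the deposited normalised values (-1.42, adjusted p = 0.121).

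Gpnmb encodes a transmembrane glycoprotein of lysosome-rich macrophages that is also known from melanocytes (chromosome 6, 49013426 to 49047863, plus strand, 11 exons). It did not follow the others. Day 0 levels were 149, 20.3, 11.9 and 35.4 CPM, and day 7 levels were 48.1, 39.5, 53.8 and 186. On each of these days 1 library stood several-fold above its group. Day 14 had 28.8, 22.9 and 11.7 CPM, day 21 had 44.9, 56.5, 184 and 4.65, and day 28 had 21.5, 23.2 and 43.1. No day separated from day 0. The log2 differences from day 0 were 0.61 on day 7 (SE 0.70, adjusted p = 0.624), -1.35, 0.45 and -0.88 on days 14, 21 and 28 (adjusted p = 0.468, 0.786 and 0.655). A miss at this spread does not show that Gpnmb was level. Melanocyte genes, picked after the values were seen, were near absent, with Tyrp1 at 0 in all libraries and Pmel, Mlana, Dct and Tyr at no more than 5 counts in any.

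**Figure D2:**
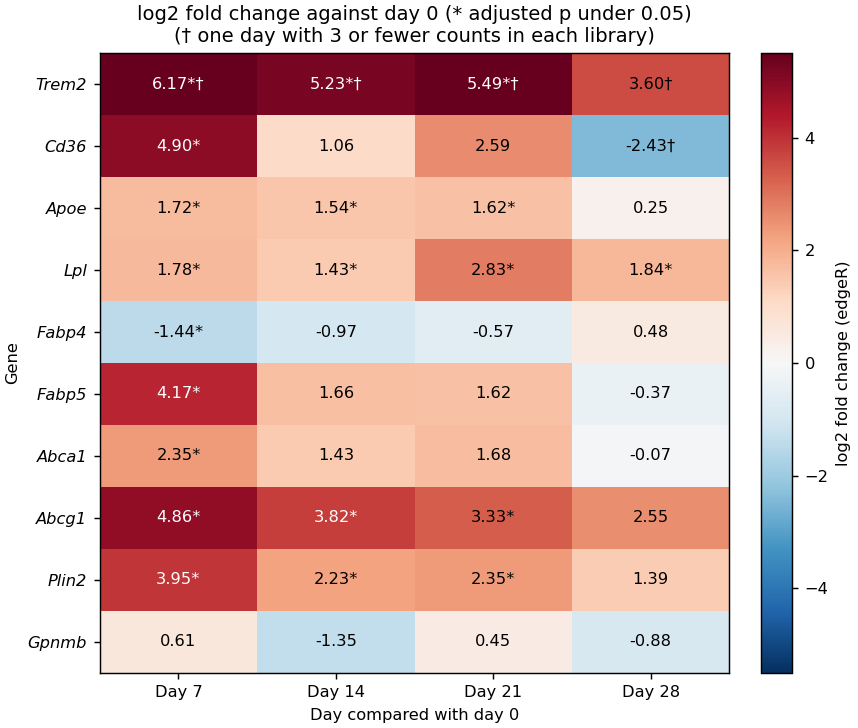
Fitted log2 fold change of each gene against day 0, from edgeR over 18 libraries, as colour and number, with an asterisk at an adjusted p under 0.05 and a dagger where one of the days had 3 or fewer counts in each library. The 4 columns share the day 0 libraries. Lpl carries an asterisk in all 4 columns, Gpnmb in none, and Fabp4 on day 7 is the one called value below 0.

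Counted over the 10 genes, 8 rose and 1 fell on day 7 against day 0, where 19.8% of all genes tested were called, 11.3% higher and 8.53% lower. The median log2 difference was 3.15, against 0.07 over all genes tested. On day 14, 5 rose and none fell, with 6.22% of all genes called, 4.80% higher and 1.42% lower, and a median of 1.49 against 0.05. On day 21, 5 rose and none fell, with 8.84% of all genes called, 5.92% higher and 2.93% lower, and a median of 2.01 against 0.07. The same 5 genes, Trem2, Apoe, Lpl, Abcg1 and Plin2, were called on both days. On day 28 only Lpl was called, with 1.34% of all genes called, 0.970% higher and 0.369% lower, and a median of 0.36 against -0.01. At an unadjusted p under 0.05, edgeR gave 7 higher and 1 lower on day 14, 8 higher and 0 lower on day 21, and 4 higher and 0 lower on day 28, and DESeq2 gave none lower on these days at its adjusted p. The share of all genes past that unadjusted p was not counted, so these counts do not set the 10 genes apart from the rest. These comparisons share their day 0 libraries.

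With the shared mouse numbers as a block, the counts were 6 higher and none lower on day 7, 2 higher on day 14, 6 higher on day 21 and none on day 28. The shared numbers cover every day 0 library but replicate 1 and every day 21 library but replicate 2. In the block fit, day 0 against days 7, 14 and 28 therefore rests on these 2 libraries and the paired differences. The part of this in the lost calls was not tested. Over all genes, that fit called 1047, 199, 808 and 3 genes on these days, in place of 2041, 641, 912 and 138. Without a filter on low counts, and with DESeq2, 8 genes rose on day 21 and 2 on day 28. Over all genes, these settings called 1178 and 1276 on day 21 and 363 and 366 on day 28, more than the 912 and 138 above.

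Separation of the libraries was counted as well. All day 7 libraries were above all day 0 libraries for 6 of the 10 genes, where 13.6% of all genes tested did so, and below for Fabp4, where 9.71% did. The number wholly above day 0 was 6 on day 14 (10.7% of all genes), 5 on day 21 (9.31%) and 1 on day 28 (4.88%).

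Set against day 7, 2 of the 10 genes were lower on day 14, Fabp5 and Cd36, where 1.66% of all genes were called, 1.33% higher and 0.330% lower, and the median difference was -0.99 against -0.01 over all genes. On day 21, Fabp5, Cd36 and Plin2 were lower and Lpl was higher, with 7.26% of all genes called, 4.03% higher and 3.23% lower, and a median of -0.68 against 0.01. By day 28, 6 were lower, Trem2, Apoe, Fabp5, Cd36, Abca1 and Plin2, and Fabp4 was higher, with 14.4% of all genes called, 6.40% higher and 8.05% lower, and a median of -2.36 against -0.07. The day 14 count ranged from 0 to 3 when single libraries were left out, and was 0 without day 7 replicate 2 or day 14 replicate 1 or 3. Over all genes, these fits called 66, 26 and 81, in place of 171. Without day 7 replicate 4, neither fall passed and Fabp4 was higher on day 14 than on day 7 (1.12, adjusted p = 0.0463). That fit called 318 of all genes. The day 21 count of 4 was 1 without day 7 replicate 2 or day 21 replicate 2, and 2 without day 7 replicate 1 or 3 or day 21 replicate 1 or 4. Over all genes, these fits called 513 and 669, then 502, 557, 500 and 517, in place of 749. Fabp4 on day 21 differed from day 7 by 0.87 (adjusted p = 0.138), and by 1.53 without day 7 replicate 4 (adjusted p = 0.00161). None of the 10 genes passed the edgeR test between days 14 and 21, 14 and 28 or 21 and 28, where 0%, 0.698% and 0.679% of all genes were called. The smallest adjusted p was that of Cd36 from day 21 to day 28, 0.0612. At an unadjusted p under 0.05 there were 2, 6 and 7 of the 10 genes in these comparisons, and DESeq2 called 1, 1 and 2 at its adjusted p. The shares of all genes past these 2 thresholds were not counted, so these counts do not set the 10 genes apart either.

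**Figure D3:**
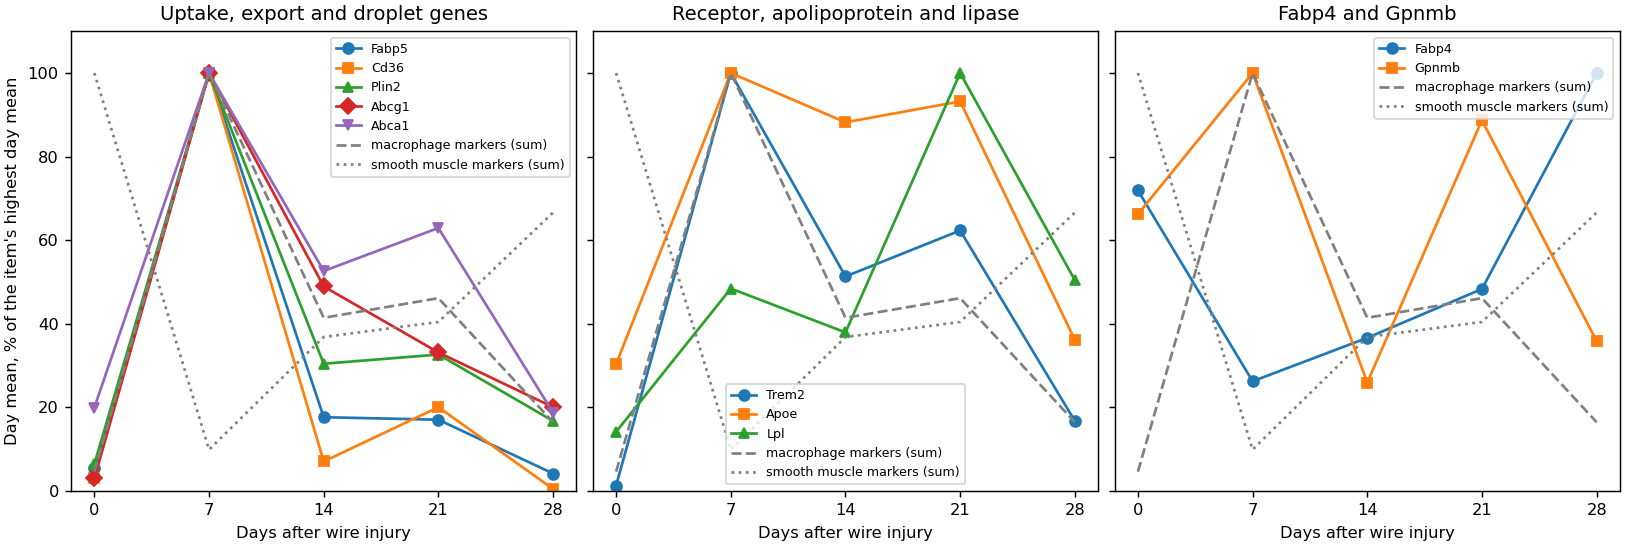
Mean level of each gene on each day as a percent of its highest day mean, with the summed macrophage markers (dashed) and smooth muscle markers (dotted) on the same scale. Cd36 and Fabp5 drop faster after day 7 than the macrophage sum, Apoe stays near its day 7 level to day 21, Lpl peaks on day 21 and Fabp4 runs opposite to the macrophage sum.

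To describe how far the levels moved with the macrophage markers, each gene was set per 1000 CPM of the 16 summed markers in the same library. Plin2 varied least within day 7, at 21.1 to 24.1, and had a median of 45.1 on day 0, when both levels were low, and 15.1, 17.7 and 16.1 on days 14, 21 and 28. Trem2 had medians of 2.54, 15.7, 25.9, 15.6 and 9.80 over days 0, 7, 14, 21 and 28. Cd36 had a median of 13.8 on day 0 (0 to 30.3), and went from 13.4 on day 7 to 1.98 on day 14, 4.28 on day 21 and 0 on day 28. Lpl went the other way, with medians of 43.5, 89.2, 228 and 285 over days 7, 14, 21 and 28. On day 0 the ratio of Lpl had a median of 277 (216 to 682), so it dropped to day 7 and was back near that level by day 28. The ratio of Cd36 thus dropped while that of Lpl grew after day 7. Apoe per 1000 CPM of markers was 2036 to 5962 on day 0 and 172 to 759.5 on day 7, and Fabp4 was 426 to 1735 and 6.41 to 26.2, so both ratios were lower on day 7. Such a ratio carries no test and assigns no transcript to a cell type.

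**Figure D4:**
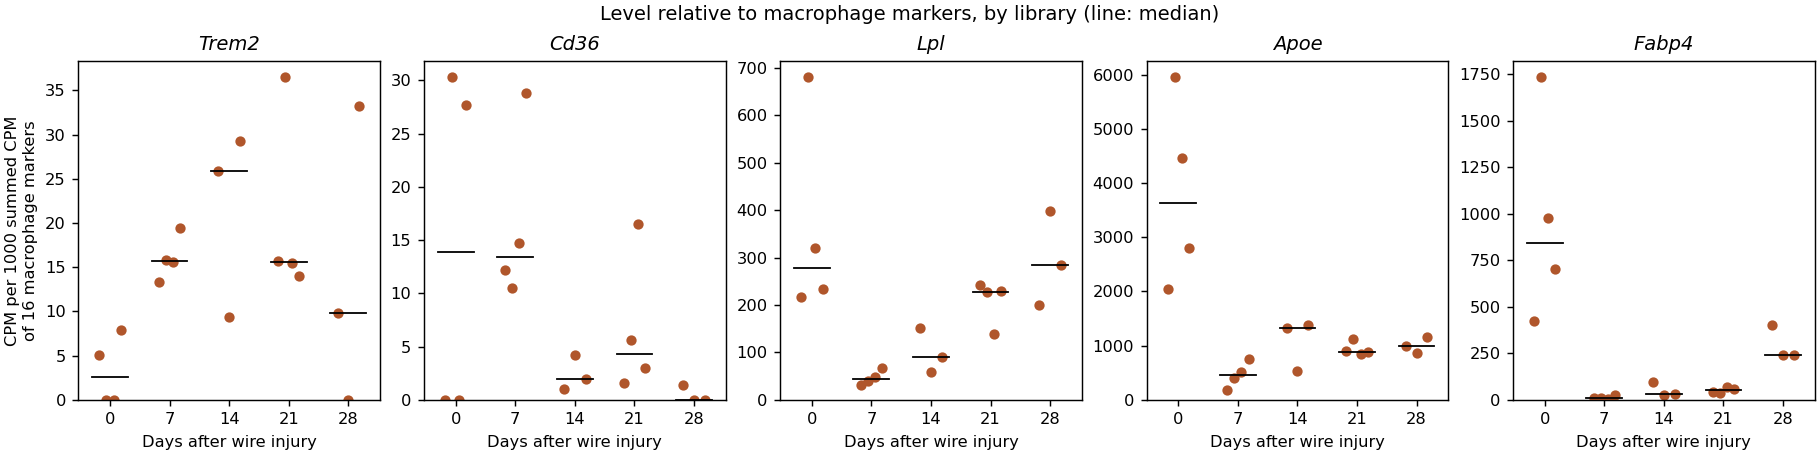
Level of each gene per 1000 CPM of the 16 summed macrophage markers in the same library, for 5 of the genes against days after wire injury, on a linear axis that differs between panels. Points are libraries and the dash is the median of the day. Lpl falls from a median of 277 on day 0 to 43.5 on day 7 and climbs to 285 on day 28, and Cd36 declines from 13.4 on day 7 to 1.98 on day 14.

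Markers of other cells that express these genes were read in the same libraries. Of 10 adipocyte markers, the summed level was 9.56 to 46.2 CPM on day 0, 8.90 to 59.8 on day 7, 26.1 to 51.2 on day 14, 27.9 to 252 on day 21 and 62.8 to 305 on day 28, and 6 of the 10, Adipoq and Cfd among them, were at 0 on day 0. Cfd was at 69.8, 54.5, 141 and 4.65 CPM on day 21 and at 93.4, 0 and 102 on day 28. Day 21 replicate 3, with the most Cfd of its day, also had the most Fabp4 of its day, 237 CPM. On day 28, Fabp4 was at 414, 246 and 334 CPM in the same order of libraries, so replicate 2 held it without a count of Cfd. On day 0 Fabp4 was at 195 to 274 CPM, where Cfd had no count. Fibroblast markers, 8 genes, summed to 1054 to 2134 CPM on day 0, 658 to 1716 on day 7, 2054 to 3558 on day 14, 2501 to 3825 on day 21 and 1304 to 1614 on day 28. Lum made up much of the larger fibroblast sums, with means of 119 CPM before injury, 1566 (day 14) and 1837 (day 21). Against day 0, edgeR called 2 of the 8 genes higher and 5 lower a week after injury. The calls were 2 higher and 1 lower for day 14, and 2 higher and 2 lower for day 21. The fibroblast sum therefore does not stand for all 8 genes. Endothelial markers, 10 genes, summed to 670.0 to 1222 CPM on day 0 and 737 to 2344 on day 7. Of 7 neutrophil markers, which include Csf3r, a gene close to Cd36 in pattern, the sum was 26.8 to 101 CPM on day 0 and 231 to 798 on day 7, with Ly6g at 0 on both days. Red cell genes summed to 40.2 to 369 CPM on day 0 and 164 to 2347 on day 7. The 9 mitochondrially encoded genes, read as a sign of RNA quality, summed to 29722 to 41666 CPM on day 0, 22318 to 39357 on day 7, 17313 to 32961 on day 14, 26969 to 45804 on day 21 and 17086 to 26767 on day 28, which was below every day 0 library. The part of these cells and of RNA quality in the results was not tested.

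Other genes of the same pathways were read from lists chosen by function, whose counts stand beside the 19.8% of all genes called on day 7. Among 16 tested partners of TREM2 and genes known from lipid-associated macrophages, 11 rose and 1 fell on day 7, with a median log2 difference of 1.91. Tyrobp, the signalling adaptor of TREM2, rose by 4.62 (SE 0.47, adjusted p = 2.1e-07), from 14.3 ± 11.6 to 352 ± 56.9 CPM (SD, n = 4 each), and was called on days 14 and 21 too. Spp1, which encodes osteopontin, had at most 1 count in a day 0 library and 1539 ± 1087 CPM on day 7 (n = 4), and it was the 1 gene of this list called on day 28 (102 ± 75.9 CPM, n = 3, adjusted p = 0.00472). Lgals3, which encodes galectin-3, rose by 3.04 (SE 0.38, adjusted p = 2.8e-06). On days 14 and 21, 6 of the 16 rose, and 1 fell on day 21.

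The degradation of lipid in lysosomes is served by 17 tested genes, of which 8 rose and none fell on day 7, with a median of 0.91. Lipa, the acid lipase that hydrolyses cholesteryl esters, rose by 1.98 (SE 0.45, adjusted p = 0.0021). Npc2, which hands cholesterol to the lysosomal membrane, rose by 1.21 (SE 0.24, adjusted p = 0.000798), and Ctsd, a lysosomal protease, by 1.41 (SE 0.29, adjusted p = 0.000777). Pla2g15, the lysosomal phospholipase, rose by 1.62 on day 7 (SE 0.36, adjusted p = 0.00212) and was the only one of the 17 called on all 4 days, with 1.62 on day 28 (SE 0.38, adjusted p = 0.037). On days 14, 21 and 28, 3, 4 and 1 of these genes rose.

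Lipoprotein and scavenger receptors, 12 genes tested, showed 5 higher and 2 lower on day 7, with a median of 0.80. Msr1, the class A scavenger receptor, rose by 5.61 (SE 0.93, adjusted p = 9.4e-05) from 2.10 ± 2.44 to 109.7 ± 11.6 CPM (SD, n = 4 each). Cxcl16, whose membrane form binds oxidised lipoprotein, rose by 3.00 (SE 0.36, adjusted p = 1.6e-06), Cd68 by 5.15 (SE 0.64, adjusted p = 2.7e-06) and Stab1 by 1.49 (SE 0.27, adjusted p = 0.000274). Msr1 dropped back to 15.8 ± 15.9 CPM on day 14 (n = 3), where it was not called (adjusted p = 0.109). It was called on day 21 (3.06, SE 0.96, adjusted p = 0.0454). Cxcl16 and Cd68 remained called on both days. On day 14, 2 of the 12 were higher and on day 21, 3 were higher and 1 lower.

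The remaining lists held few calls. Of 15 tested cholesterol export and liver X receptor genes, apart from Abca1 and Abcg1, 1 rose, Npc2, and 1 fell on day 7, with a median of 0.43. The latter was Nr1h2, which encodes one of the liver X receptors, lower by -0.93 on the log2 scale (SE 0.32, adjusted p = 0.0423). Of 12 tested genes of fatty acid uptake and activation, Angptl4 rose and Acsl1, an acyl-CoA synthetase, fell by 1.39 (SE 0.39, adjusted p = 0.011), with a median of 0.51. Fabp3, the fatty acid-binding protein of muscle, was at 27.8 ± 15.8 CPM before injury and 2.91 ± 3.83 a week later (SD, n = 4 each, adjusted p = 0.0503).

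Of 12 tested lipid droplet genes other than Plin2, 1 rose and 3 fell on day 7, where 11.3% and 8.53% of all genes did, with a median of -0.15. Soat1, which makes cholesteryl esters in macrophages, rose by 1.72 (SE 0.53, adjusted p = 0.0211). Plin4, a perilipin of muscle and fat, fell by 2.94 (SE 0.47, adjusted p = 6.7e-05) from 297 ± 54.5 to 38.3 ± 30.0 CPM (SD, n = 4 each), and Mgll, a monoglyceride lipase, by 1.16 (SE 0.40, adjusted p = 0.0441). Cidea, a droplet protein of fat cells, was at 25.6 ± 16.7 CPM on day 0 and had no count in any day 7 library (adjusted p = 0.00118).

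**Figure D5:**
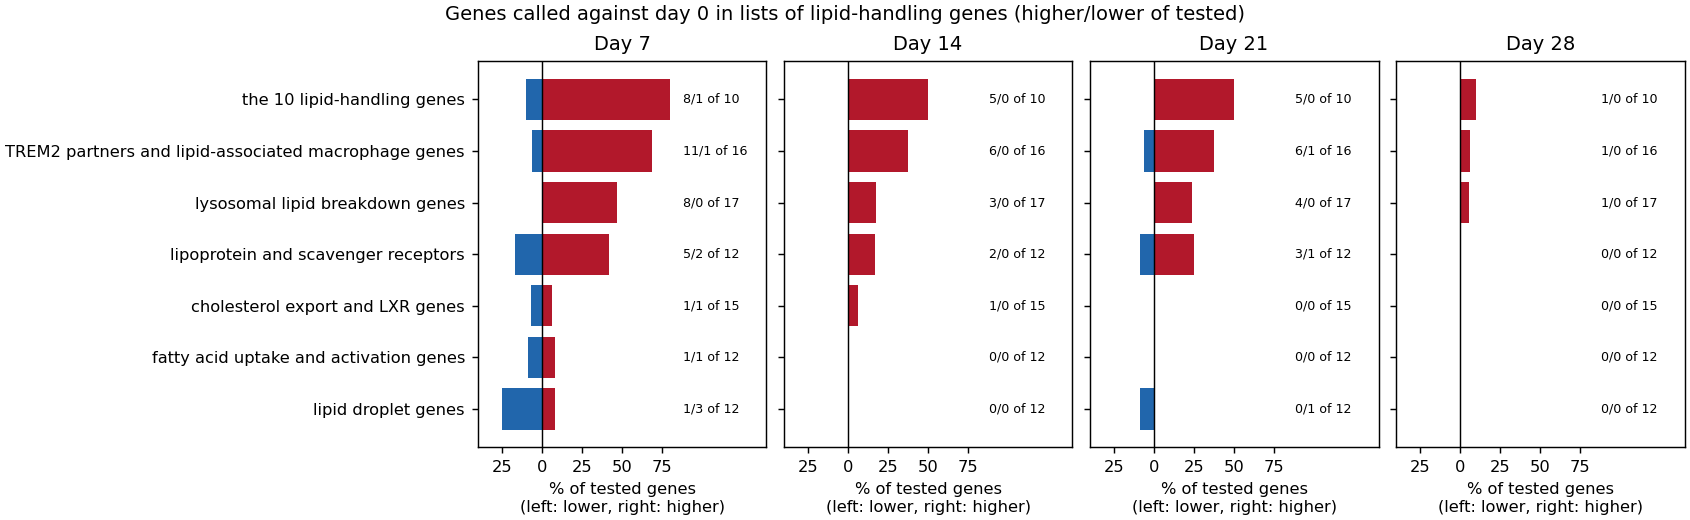
Share of the tested genes in each list called higher (red, to the right) or lower (blue, to the left) against day 0, in percent, with the counts printed beside each bar, for days 7, 14, 21 and 28. The partners of TREM2 reach 11 of 16 higher on day 7, and the lipid droplet genes show 3 lower and 1 higher.

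The genes whose log2 CPM tracked each of the 10 most closely over the 18 libraries, are given with Pearson's r as a description. Trem2 was most like Myo1f (0.96), Arhgap22 (0.94) and Fyb (0.94). Plin2 was most like Clec4n (0.95), Ms4a6d (0.93) and Fcgr3 (0.92), and Fabp5 like Lgals3 (0.94), Clec4n (0.91) and Mcm3 (0.90). Cd36 was most like Msr1 (0.91), Csf3r (0.91) and Clec4n (0.90), Abca1 like Tnfrsf1b (0.91), Map3k14 (0.90) and Cfp (0.90), and Abcg1 like Rab3il1 (0.94), Ms4a6d (0.92) and Tnfaip8l2 (0.91). Clec4n, a C-type lectin of myeloid cells, was thus among the 3 nearest genes of Plin2, Fabp5 and Cd36.

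No gene was shared among the nearest of the other 4. Fabp4 was most like Aebp1 (0.93), Ptgis (0.92) and Ccdc3 (0.91), and Lpl like Nrp1 (0.88), Pou2f2 (0.87) and Ltbp2 (0.85). Apoe was most like Igfbp3 (0.84), Hexa (0.83) and Cd72 (0.83). Gpnmb reached 0.76 with Abcf1, 0.76 with Krtcap2 and 0.75 with Ccdc84, the lowest of the 10. The libraries share their days and their depth in all of these values, which say nothing of shared function or control.

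Several of these rows can share reads with other genes. Over the last 500 bases of their transcripts, 27.7% of the 31-base words of Fabp5 and 12.2% of those of Plin2 also occur in other genes. For Fabp5 those genes include Gm6166, Gm14328 and Fabp5l2, and for Plin2 Gm12551, and all 4 had no count in any library, so their reads, if any, cannot be told from those of the parent gene. Exons of Trem2, Apoe, Lpl, Fabp4, Fabp5 and Gpnmb overlap a gene on the opposite strand in GENCODE M39, and those genes were not analysed here.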

How the data were processed

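Before deposit, the authors collapsed PCR copies of the MACE reads by their molecular identifiers, trimmed them, quantified them with Salmon (1.9.0 per the submitters' processing notes, build mm39) and deposited, as whole numbers, an estimated count for each gene. A second deposited table holds a normalised signal that, per the authors, came from DESeq2 (1.36.0) and was used in 1 alternative. The annotation release and the use of the strand are not given in the sources used here. Here the estimated counts were taken as deposited. Of 35655 genes, 17606 had no count.

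Counts were fitted with edgeR 4.0.16 in R 4.3.3 (filterByExpr, TMM, quasi-likelihood test, two-sided, 18 libraries, day as the only term), and p-values were adjusted by Benjamini-Hochberg over 10312 genes, with 0.05 as the threshold. SE is the log2 fold change over the root of F. The common coefficient of variation was 0.449. CPM use TMM-scaled totals. Each of 440675 to 878310 counts per library is 1.18 to 2.33 CPM, and 3 counts were taken as a floor. Sources do not state that libraries of a day are separate animals in every case, so p-values measure the spread between libraries. The steps were tested on simulated data.

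Libraries with the same replicate number had residual correlations of -0.13 to 0.20 (median -0.01, 33 pairs). The 3 pairs of 1 mouse number had -0.01 to 0.06. Since pairs that share a mouse number also lay near 0, the check cannot exclude pairing by replicate number. The fit with the mouse numbers as a block is given where it changes a call. No 2 columns were identical (highest r 0.8963).

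Alternatives were RLE factors, library totals, no filter, DESeq2 1.42.0, limma 3.58.1 on log2(normalised value + 1), only the 2 days compared, replicate and mouse blocks, and each library left out. The genes, lists and tests were chosen with earlier results of these data known. Named were the 10 genes, up to 4 genes per list with the smallest day 7 p, defining markers, and the 3 genes most like each (log2 CPM, prior count 2). The Fabp5 share of Fabp4 counts and the melanocyte genes were added after values were seen. Lists share Npc1, Npc2, Lipa, Cd68, Ctsd, Scarb1, Tyrobp, Lipe, Plin1, Cidec and Gpihbp1.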

Additional observations from a re-analysis of the deposited data

Results flagged for a closer look

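Of 30 groups of 4 libraries, 10 genes on days 0, 7 and 21, 5 held a library that lay far from the other 3 by Dixon's test, which chance gives in about 1 in 20 groups. Apoe was at 1194 CPM in day 0 replicate 1 and at 893 to 941 in the others. In the same library Abca1 was at 71.5 CPM, against 6.56 to 10.8. Fabp4 was at 237 CPM in day 21 replicate 3, against 131 to 139. Gpnmb was at 186 CPM in day 7 replicate 4, against 39.5 to 53.8. Abcg1 was at 55.6 CPM in day 21 replicate 1, against 8.22 to 10.1.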

How the results depend on the processing

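No value of any gene reversed as a call in any alternative run. The count of 9 genes on day 7 against day 0 was 9 in every fit that left out 1 library, and 6 with the mouse block. Without a filter on low counts, 8 genes passed on day 21 and 2 on day 28 against day 0, and 4 on day 14 against day 7. Over all genes, that setting called 392 on day 14 against day 7, in place of 171. DESeq2 gave 8 and 2 on these days against day 0. On day 14 against day 7, limma on the deposited normalised signal gave 1, and the replicate block gave 1, with Fabp5 lost (adjusted p = 0.0621). The replicate block changed no other call. With the mouse block, 2 genes passed on day 14 and 0 on day 28 against day 0, where edgeR without it called 5 and 1, and Cd36 was no longer called on day 21 against day 7 (adjusted p = 0.171). Leaving out single libraries gave 3 to 6 genes on day 14, 4 to 6 on day 21 and 1 to 2 on day 28 against day 0, and 0 to 3, 1 to 4 and 5 to 8 on days 14, 21 and 28 against day 7. Day 28 against day 0 gave 2 without day 28 replicate 1 or 2, and day 14 gave 3 without day 14 replicate 2. Over all genes, the day 28 fits called 480 and 63, in place of 138, and the day 14 fit 233, in place of 641. The causes were not tested. Plin2 passed on day 14 against day 7 with RLE factors (adjusted p = 0.045) and library totals (0.0422). With only the 2 days in the fit, Trem2 and Apoe on day 28 against day 7 missed the threshold (adjusted p = 0.0505 and 0.0584). No scaling moved the median of all genes by more than 0.09. Depth limits Trem2, Cd36 and Abcg1 on day 0 and Cd36 on day 28, where 3 counts in a library come close to or exceed their levels.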
